A study of Mus musculus with 16 samples.

Results

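The axon guidance ligands and receptors were followed in nuclear RNA of the mouse colon. The set was defined by name: every protein-coding gene of the deposited count table whose symbol begins with Sema, Plxn, Slit1, Slit2, Slit3, Robo, Unc5, Ntn, Epha, Ephb, Efna or Efnb, together with Dcc, Nrp1 and Nrp2. This gave 72 genes out of 51912 in the table, of which 21870 are protein-coding. They comprise 20 semaphorins, 9 plexins, 2 neuropilins, 3 Slits, 4 Robo receptors, 3 netrins, 2 netrin-G ligands, Dcc, 4 Unc5 receptors, 9 EphA and 5 EphB receptors, 5 ephrin-A and 3 ephrin-B ligands. The remaining 2, Unc50 and Unc5cl, were caught by the shared prefix and are not guidance receptors. With those left aside, 36 members are ligands and 34 are receptors or co-receptors.

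There were 4 groups of 4 libraries: neuronal agonist, neuronal control, non-neuronal agonist and non-neuronal control. All mice were C57BL/6, free of specific pathogens, and received an intravenous AAV9 vector with a nuclear-envelope EGFP (EGFP-KASH) driven by a CaMKII promoter 5 weeks before the colon was taken. Agonist mice received 3-methylcholanthrene, a polycyclic hydrocarbon that activates the aryl hydrocarbon receptor (AhR), into the peritoneum 14 h before isolation, and control mice received the corn oil vehicle. Nuclei came from the peeled outer muscle layer with its attached myenteric plexus, and were sorted by EGFP into a tagged (neuronal) and an untagged (non-neuronal) fraction. The labels give no dose, and they do not say if each library is 1 mouse or pooled tissue, so p-values measure only the spread between these samples, which may be technical. A neuron without the tag falls into the non-neuronal fraction, and in bulk libraries such as these fewer cells of a type and less RNA per cell cannot be told apart.

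Guidance cues are secreted or membrane-bound proteins that steer growing axons and migrating cells through receptors on the responding cell. Class 3 semaphorins signal through neuropilin and plexin-A complexes, Slits through Robo receptors, netrin-1 through Dcc (attraction) and Unc5 receptors (repulsion), and ephrins through Eph receptor tyrosine kinases on the neighbouring cell. In the gut these systems are known from the migration of enteric neural crest cells and the patterning of enteric nerve fibres. Several members also act outside the nervous system, for example EphB4 and ephrin-B2 in blood and lymphatic vessels.

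Promoter windows are shown for the 6 members with the largest difference between populations among those called in both treatments that have a window in the RefSeq table. Each is 300 bases long, from 250 bases before to 50 after the annotated start, taken from RefSeq on build GRCm38.p6 and written in the direction of the gene. Capitals mark the letters GCGTG, the core of the element bound by activated AhR with its partner Arnt, or CACGC, the same letters on the opposite strand. The windows of Ntng1, Sema4f, Plxna3 and Epha6 belong to genes higher in neuronal nuclei, and those of Ephb4 and Sema5a to genes lower in neuronal nuclei.
Ntng1 (chr3:110143423-110143722, minus strand): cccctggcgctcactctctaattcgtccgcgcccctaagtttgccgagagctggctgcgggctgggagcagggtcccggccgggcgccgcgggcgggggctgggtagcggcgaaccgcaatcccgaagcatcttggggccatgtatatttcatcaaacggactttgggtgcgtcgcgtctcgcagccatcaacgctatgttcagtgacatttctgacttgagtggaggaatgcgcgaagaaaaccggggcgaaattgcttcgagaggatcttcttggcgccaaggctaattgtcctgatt
Sema4f (chr6:82939720-82940019, minus strand): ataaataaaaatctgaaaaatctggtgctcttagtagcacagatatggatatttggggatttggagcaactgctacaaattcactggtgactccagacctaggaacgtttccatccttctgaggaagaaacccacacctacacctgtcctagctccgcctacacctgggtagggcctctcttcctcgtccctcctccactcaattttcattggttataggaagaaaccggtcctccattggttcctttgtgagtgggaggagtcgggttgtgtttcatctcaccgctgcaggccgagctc
Plxna3 (chrX:74328816-74329115, plus strand): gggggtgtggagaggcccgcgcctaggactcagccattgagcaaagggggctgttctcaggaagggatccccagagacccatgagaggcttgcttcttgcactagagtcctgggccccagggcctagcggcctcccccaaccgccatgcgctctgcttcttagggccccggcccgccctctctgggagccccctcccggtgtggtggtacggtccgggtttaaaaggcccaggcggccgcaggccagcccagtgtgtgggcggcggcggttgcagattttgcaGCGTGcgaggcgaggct
Epha6 (chr16:60605482-60605781, minus strand): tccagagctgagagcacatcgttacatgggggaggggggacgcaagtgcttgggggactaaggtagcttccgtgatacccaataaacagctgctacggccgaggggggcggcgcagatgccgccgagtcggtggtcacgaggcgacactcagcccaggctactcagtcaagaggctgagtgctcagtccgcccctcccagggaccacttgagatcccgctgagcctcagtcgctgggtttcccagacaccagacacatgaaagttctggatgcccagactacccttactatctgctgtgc
Ephb4 (chr5:137349859-137350158, plus strand): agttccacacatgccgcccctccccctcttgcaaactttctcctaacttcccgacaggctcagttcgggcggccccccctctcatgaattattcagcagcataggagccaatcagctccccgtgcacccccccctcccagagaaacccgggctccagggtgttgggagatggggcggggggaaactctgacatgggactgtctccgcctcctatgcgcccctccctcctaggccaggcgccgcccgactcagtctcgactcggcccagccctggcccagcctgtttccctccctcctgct
Sema5a (chr15:32244563-32244862, plus strand): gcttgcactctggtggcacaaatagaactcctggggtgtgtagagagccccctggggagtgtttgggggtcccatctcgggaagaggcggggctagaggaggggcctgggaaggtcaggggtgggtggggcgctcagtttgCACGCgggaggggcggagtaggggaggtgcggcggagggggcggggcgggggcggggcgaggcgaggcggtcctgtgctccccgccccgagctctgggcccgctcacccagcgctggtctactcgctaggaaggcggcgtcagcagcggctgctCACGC
The window of Plxna3 held these letters at 1 place and that of Sema5a at 2 places, and the other 4 windows did not hold them. Across the RefSeq table, 62 of the 72 members matched by symbol, with 78 windows, of which 31 (39.7%) held GCGTG on either strand. Over all 32851 windows of the table the share was 32.4%. The median GC content was 64.0% in the windows of members and 52.7% in all windows. A match is a description of the letters in this window and says nothing about binding.

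Sequencing depth lay between 2663818 and 4902344 counts per library. The members together took between 0.387% and 0.440% of counts in the neuronal agonist group and between 0.397% and 0.433% in the neuronal control group, against 0.110% to 0.240% and 0.157% to 0.327% where nuclei were non-neuronal (agonist, then control). The summed level of 15 pan-neuronal markers was 4357 to 6489 CPM in neuronal agonist and 4165 to 4889 CPM in neuronal control libraries, against 191 to 627 CPM in non-neuronal agonist and 244 to 687 CPM in non-neuronal control libraries, and 11 of 14 tested were higher in neuronal nuclei in agonist mice and 15 of 15 in control mice. Levels are CPM of the TMM-scaled library. Non-neuronal libraries stood apart in mitochondrially encoded counts, whose share ran up to 42.8% with agonist and 26.3% with corn oil, both from at least 10.3%. In neuronal libraries it was between 1.77% and 6.11%. Non-neuronal agonist libraries 1 and 2 exceeded 30%. Neuronal agonist library 1 had the fewest genes with a count (17293). Epithelial markers, which the muscle layer should lack, summed to between 1112 and 14550 CPM in non-neuronal libraries and to at most 103.0 CPM in neuronal ones. Other markers were less absent from neuronal libraries. Smooth muscle markers summed there to 272.5 to 1117 CPM, against 3977 to 15790 CPM in non-neuronal libraries. The 3 markers of interstitial cells of Cajal summed to 304.3 to 461.7 CPM in neuronal and 222.2 to 531.8 CPM in non-neuronal libraries. Their sum joins opposite directions. In each treatment 2 of the 3 were lower in neuronal nuclei, and 1 was higher in control mice and not called in agonist mice. The sum therefore gives no measure of these cells in either fraction. How far these differences bear on the members was not tested beyond refits without single libraries or without both libraries over 30%. The agonist's known target Cyp1a1 had 92 counts in neuronal agonist and 0 in neuronal control libraries. It had 1385 counts in non-neuronal agonist against 1 in non-neuronal control libraries. Non-neuronal agonist libraries 1 to 4 held 11.7, 8.57, 163 and 165 CPM, so libraries 1 and 2 were far lower than 3 and 4.

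**Figure D1:**
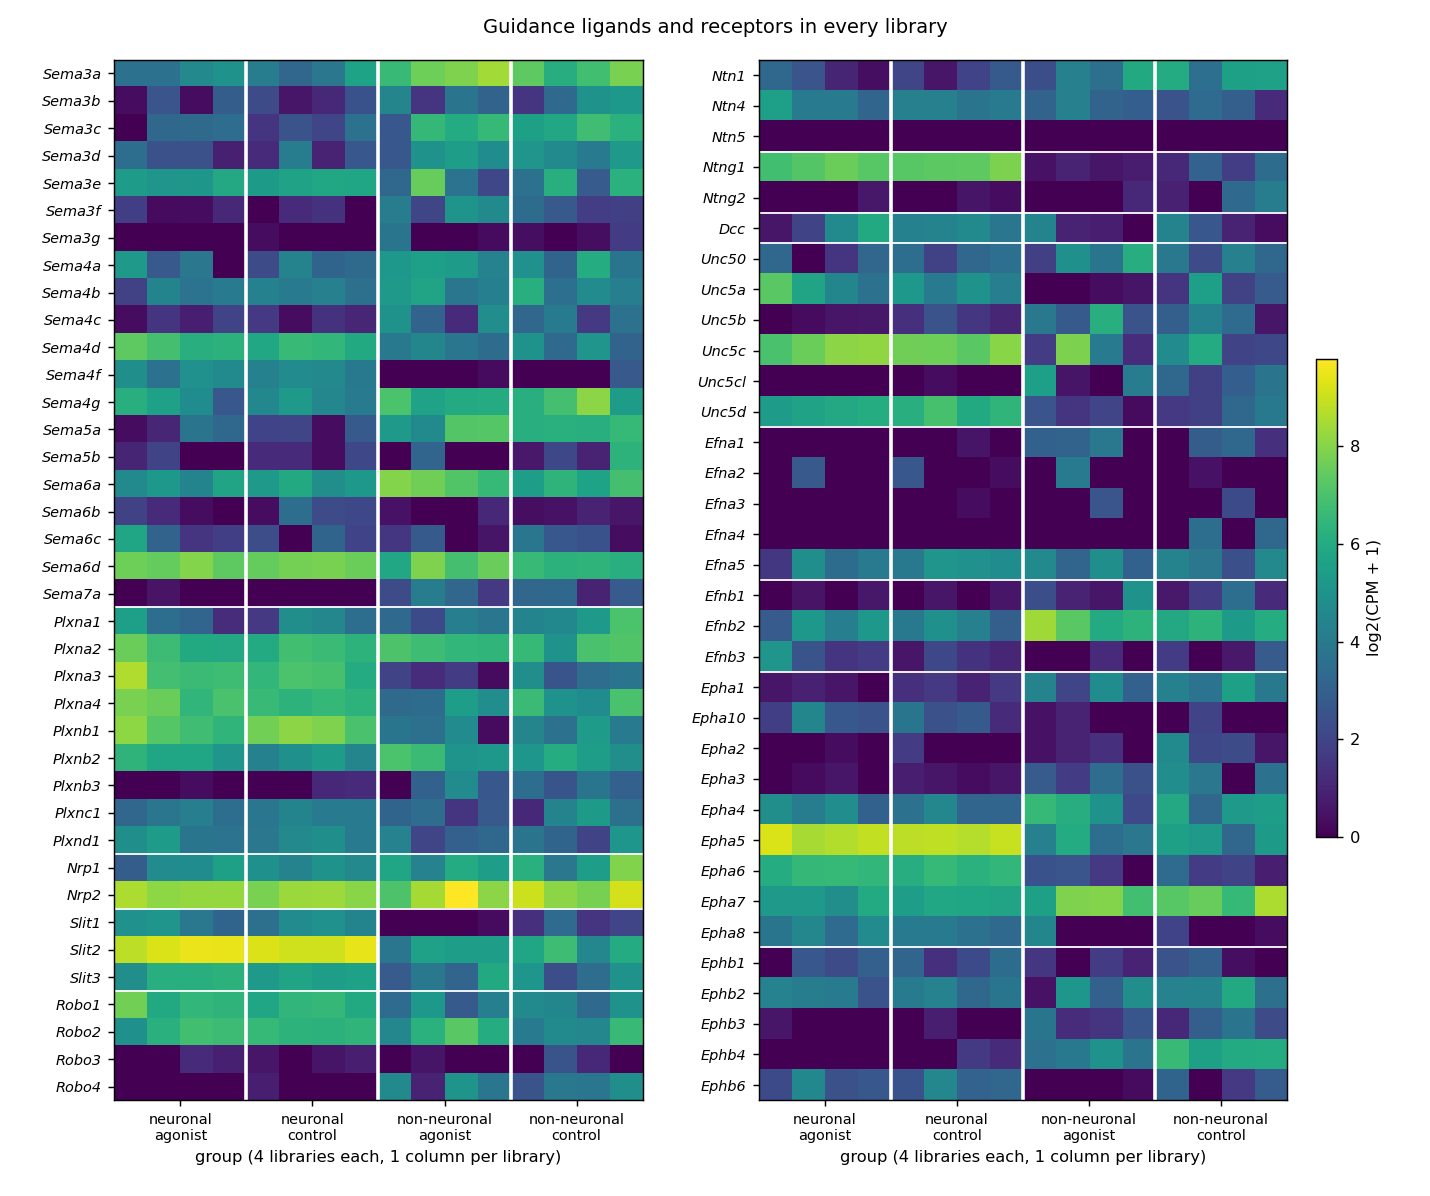
Level of each of the 72 members in each of the 16 libraries, as log2(CPM + 1), with members grouped by family and libraries grouped by nuclei and treatment (4 columns per group). Slit2, Epha5, Ntng1, Plxna3, Plxnb1 and Unc5d are brighter in the 8 neuronal columns than in the 8 non-neuronal columns, whereas Sema5a, Ephb4 and Sema3a show the opposite, and Ntn5 is at 0 throughout.

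The first question was which guidance genes set neuronal nuclei apart from the other nuclei of the same tissue. A gene was called at an adjusted p under 0.05 in edgeR's quasi-likelihood test. In agonist mice 49 members passed the count filter, and 14 were higher and 7 lower in neuronal nuclei (28.6% and 14.3% of those tested). Over all genes tested there, 6.67% were higher and 6.97% lower. In control mice 52 members passed, and 14 were higher and 12 lower (26.9% and 23.1%), beside 11.8% and 13.5% of all genes tested. These shares over all genes also stand beside the counts by family given below. The median log2 fold change of the tested members was 0.01 in agonist and -0.05 in control mice, against -0.15 and -0.11 over all genes tested. When libraries were scaled to total counts alone, 14 members were higher and 4 lower in agonist mice (9.47% and 4.61% of all genes tested), which made 77.8% of the calls higher, against 66.7% with TMM, and the median over all genes there moved to 0.43. Libraries of the 2 populations did not overlap for 14 members higher and 6 lower in agonist mice (11.7% and 9.96% of all genes tested) and for 16 and 11 in control mice (15.1% and 15.5%). A member that passed the filter only through the population in which it is high had to differ, so these counts describe the tested members and not all 72. The 9 members tested in no comparison were Robo3, Efna2, Efna3, Efna4, Efnb1, Ntng2, Ntn5, Sema3g and Sema6b, none with more than 207 counts over the 16 libraries, and Ntn5 had none.

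Summed over the family, the mean level of semaphorin RNA was higher in the non-neuronal groups. The summed level of the 20 genes was 644, 492, 508 and 456 CPM in neuronal agonist libraries, against 762, 1165, 936 and 1065 CPM in non-neuronal agonist libraries. It was 404, 562, 498 and 482 CPM in neuronal control libraries, against 706, 644, 878 and 919 CPM in non-neuronal control libraries. In both treatments the lowest non-neuronal library lay above the highest neuronal library at these TMM-scaled levels. With libraries scaled to total counts the means kept their direction, but the difference was smaller. The log2 ratio of neuronal over non-neuronal means was then -0.35 in agonist and -0.33 in control mice, against -0.9 and -0.69 with TMM. The separation of single libraries is stated for TMM scaling only. Of 15 semaphorins tested in agonist mice 2 were higher and 3 lower in neuronal nuclei, and of 14 tested in control mice 3 were higher and 5 lower.

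Sema3a, a secreted repellent that acts through Nrp1 and plexin-A receptors, was lower in neuronal nuclei in both treatments. It had 11.8, 11.6, 23.6 and 31.9 CPM in neuronal agonist libraries against 94.8, 194, 235 and 340.5 CPM in non-neuronal agonist libraries. In control mice the values were 16.5, 8.46, 13.5 and 49.7 CPM in neuronal, against 162, 66.5, 111 and 226 CPM in non-neuronal libraries. The groups did not overlap in either treatment. This gave a log2 fold change of -3.47 ± 0.58 (SE) in agonist mice (adjusted p = 0.00124) and -2.59 ± 0.55 in control mice (adjusted p = 0.00337).

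Sema5a, a transmembrane semaphorin with thrombospondin repeats, was lower in neuronal nuclei in both treatments too. Neuronal agonist libraries had 0.252, 1.09, 12.5 and 8.88 CPM and non-neuronal agonist libraries 37.4, 24.4, 140.4 and 148 CPM. Neuronal control libraries had 2.88, 3.08, 0.242 and 5.75 CPM and non-neuronal control libraries 71.3, 73.2, 70.0 and 93.2 CPM. Every non-neuronal library exceeded every neuronal library of its treatment, and non-neuronal agonist libraries 1 and 2 were low beside 3 and 4. edgeR fitted a log2 fold change of -3.94 ± 1.08 in agonist mice (adjusted p = 0.0236) and -4.59 ± 0.63 in control mice (adjusted p = 0.000182). The call in agonist mice was lost on leaving out, in turn, neuronal agonist library 2 and non-neuronal agonist libraries 3 and 4 (0.0542 to 0.0683), the values in parentheses being adjusted p.

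Sema3c, another secreted class 3 ligand, had 1.83, 4.62, 3.14 and 11.8 CPM in neuronal control libraries against 46.1, 57.8, 108 and 75.1 CPM in non-neuronal control libraries, without overlap. Its log2 fold change was -3.65 ± 0.58 (adjusted p = 0.000524), whereas in agonist mice it was -3.17 ± 1.15 and missed the threshold (adjusted p = 0.0865). Non-neuronal agonist library 1, at 5.29 CPM, lay far under the other 3 libraries of that group, which held 64.6 to 92.8 CPM. Sema4g was lower in neuronal control nuclei by a log2 fold change of -2.27 ± 0.52 (adjusted p = 0.00577), and was -1.05 ± 0.74 in agonist mice (adjusted p = 0.417). Sema3b, a secreted class 3 ligand, had a log2 fold change of -2.89 ± 0.97 in control mice (adjusted p = 0.0426), with overlapping groups, and its call was lost on leaving out, in turn, neuronal control libraries 1, 2, 3 and 4 and non-neuronal control libraries 3 and 4 (0.0579 to 0.115) or with scaling to library size alone (0.0684), limma voom (0.115) and 1 fit over all 4 groups (0.11).

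Sema6a, a transmembrane ligand of plexin-A2 and plexin-A4, was lower in neuronal nuclei of agonist mice, at 24.2, 35.9, 20.2 and 50.8 CPM against 252, 201, 139 and 93.5 CPM in non-neuronal agonist libraries. The groups did not overlap, and the log2 fold change was -2.40 ± 0.54 (adjusted p = 0.0082). The call was lost with scaling to library size alone (0.0678) and both libraries over 30% mitochondrial counts left out (0.107). In control mice the levels were 36.9, 60.8, 27.3 and 36.1 CPM in neuronal, against 42.6, 82.2, 49.3 and 117 CPM in non-neuronal libraries, which overlapped (log2 fold change -0.78 ± 0.40, adjusted p = 0.191).

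Semaphorins higher in neuronal nuclei were Sema4d and Sema4f in both treatments and Sema6d in control mice. Sema4d, the membrane-bound ligand of plexin-B1, had 164, 118, 69.6 and 76 CPM in neuronal, against 14.4, 21.7, 13.3 and 9.95 CPM in non-neuronal agonist libraries. Control mice gave 55.8, 97.5, 88 and 60.1 CPM in neuronal, against 31.6, 9.01, 33.2 and 7.77 CPM in non-neuronal libraries. Neither pair of groups overlapped. Its log2 fold change was 2.81 ± 0.63 in agonist mice (adjusted p = 0.00767) and 1.98 ± 0.50 in control mice (adjusted p = 0.00984).

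Sema4f, a transmembrane semaphorin, was near the limit of detection outside neurons. It had 28.5, 11.8, 30.1 and 24.1 CPM in neuronal agonist libraries against 0, 0, 0 and 0.232 CPM in non-neuronal agonist libraries, where the 4 libraries together held 1 count. The ratio was 301-fold with a 95% counting interval of 53.7 to 11920.0, which covers counting error only (adjusted p = 0.00253). Levels in control mice were 18.6, 25.4, 23.2 and 14.6 CPM in neuronal, against 0, 0, 0 and 5.7 CPM in non-neuronal libraries. All 22 non-neuronal control counts came from library 4. The log2 fold change there was 3.83 ± 1.22 (adjusted p = 0.0335). Its call was lost on leaving out, in turn, neuronal control libraries 1, 2, 3 and 4 and non-neuronal control libraries 1 and 2 (0.0532 to 0.0774). Over all fits that left out 1 library the log2 fold change ran from 3.43 to 9.24, and the lowest adjusted p was 0.000235.

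Sema6d, whose receptor is plexin-A1, differed in control mice, with 175, 210.1, 221 and 193 CPM in neuronal against 97, 77.3, 80.1 and 70.2 CPM in non-neuronal libraries. Those groups did not overlap (log2 fold change 1.39 ± 0.23, adjusted p = 0.000652). In agonist mice it had 194, 174, 248 and 162 CPM in neuronal, against 57.8, 233, 119 and 187 CPM in non-neuronal libraries, which overlapped (log2 fold change 0.35 ± 0.46, adjusted p = 0.706). Non-neuronal agonist libraries 2 and 4 lay in the neuronal range and libraries 1 and 3 under it.

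The receptors of the semaphorins lay in both populations. Of 8 plexins tested in agonist mice 3 were higher and 0 lower in neuronal nuclei, and of 9 tested in control mice 2 were higher and 1 lower. Plxnb1, the Sema4d receptor, had 275, 144, 110.0 and 84.4 CPM in neuronal, against 12.8, 11.3, 25.1 and 0.232 CPM in non-neuronal agonist libraries. In control mice it had 206, 268, 234 and 125 CPM in neuronal, against 21, 11.6, 40.4 and 15 CPM in non-neuronal libraries. The neuronal libraries were the higher ones throughout, with no overlap. Its fitted log2 fold change was 3.61 ± 0.89 in agonist mice (adjusted p = 0.0134) and 3.34 ± 0.40 in control mice (adjusted p = 7.44e-05). The call in agonist mice was lost with both libraries over 30% mitochondrial counts left out (0.077).

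Plxna3, a co-receptor with neuropilins for class 3 semaphorins, had 392, 116, 99.9 and 107 CPM in neuronal agonist libraries against 3.02, 1.35, 2.35 and 0.232 CPM in non-neuronal agonist libraries. The control values were 87.7, 127, 121 and 64.1 CPM in neuronal, against 27.2, 4.88, 10.2 and 12.4 CPM in non-neuronal libraries. The groups did not overlap, and neuronal agonist library 1 was more than 3 times as high as the next library. The log2 fold change was 6.64 ± 0.85 in agonist mice (adjusted p = 0.000193) and 2.95 ± 0.49 in control mice (adjusted p = 0.000652).

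Plxna4, the plexin through which Sema3a acts on sensory and sympathetic axons, was called in agonist mice and not in control mice, and the difference between the treatments was 2.53 ± 0.77 (adjusted p = 0.429). In agonist mice it had 225, 190.0, 84.6 and 125 CPM in neuronal, against 9.45, 9.93, 43.1 and 26.4 CPM in non-neuronal libraries, without overlap (log2 fold change 2.80 ± 0.63, adjusted p = 0.00813). In control mice the levels were 94.2, 79, 89.4 and 78.7 CPM in neuronal, against 101, 30.8, 25.7 and 124 CPM in non-neuronal libraries. There the non-neuronal libraries lay both above and below the neuronal ones (log2 fold change 0.36 ± 0.46, adjusted p = 0.625). Plxnb3, a Sema5a receptor, was lower in neuronal control nuclei at 10 counts over 4 libraries against 119 in non-neuronal ones (log2 fold change -3.64 ± 1.12, adjusted p = 0.0284). Its call was lost on leaving out, in turn, neuronal control libraries 1, 2, 3 and 4 and non-neuronal control libraries 1 and 3 (0.0522 to 0.0857) or with no count filter (0.0661) and 1 fit over all 4 groups (0.106).

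The neuropilins, the ligand-binding co-receptors of class 3 semaphorins, were not called in either treatment. Nrp2 had 384, 279, 299.8 and 299 CPM in neuronal, against 132, 347, 878 and 266 CPM in non-neuronal agonist libraries, with overlap. Nrp2 was chosen for description after its levels were seen. Nrp1 had 29.1, 19.5, 30.9 and 23.3 CPM in neuronal, against 72.2, 13.5, 44.3 and 240.0 CPM in non-neuronal control libraries, and its log2 fold change of -1.76 ± 0.65 missed the threshold (adjusted p = 0.0639). Nrp1 was called there on leaving out, in turn, non-neuronal control libraries 2 and 3 (0.00989 to 0.0486) or with no count filter (0.000608) and DESeq2's Wald test (0.0197). In agonist mice Nrp1 had 6.3, 25.4, 25.7 and 45.8 CPM in neuronal, against 52.9, 18.9, 63.3 and 43.3 CPM in non-neuronal libraries (log2 fold change -0.78 ± 0.78, adjusted p = 0.598).

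**Figure D2:**
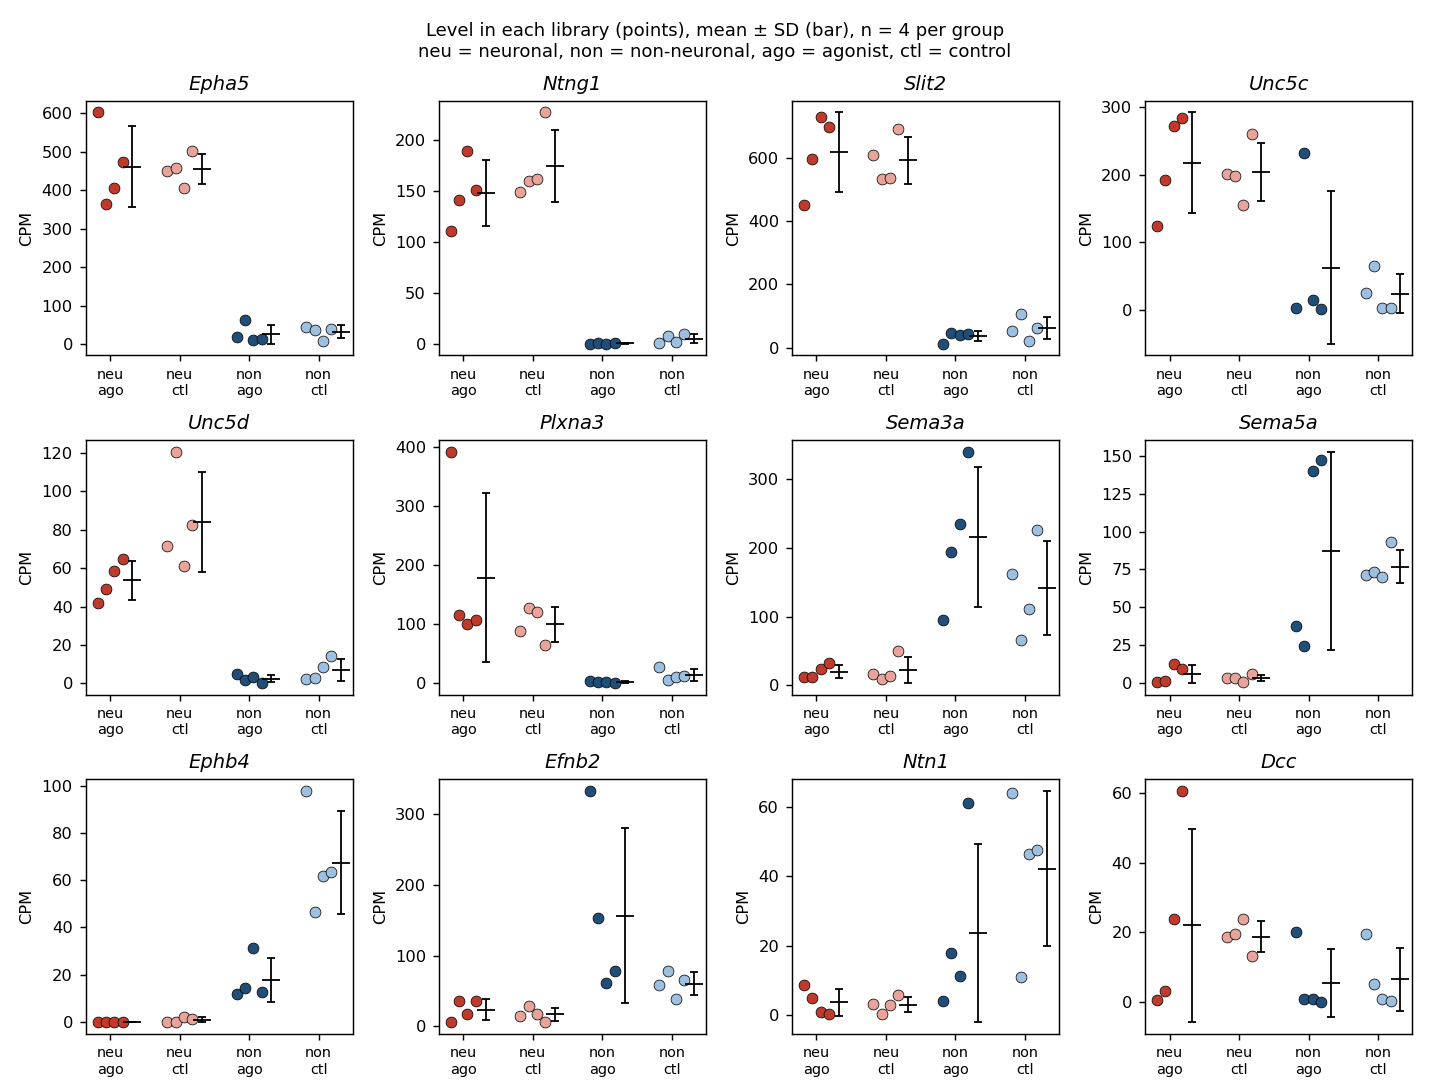
Level in CPM of 12 members in each library (points, 4 per group), with the mean and SD beside them. Epha5, Ntng1, Slit2, Unc5d and Plxna3 are higher in all neuronal libraries than in any non-neuronal library, Sema3a, Sema5a and Ephb4 are lower in all of them, and Unc5c and Dcc each have non-neuronal libraries within or near the neuronal range.

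Slit1 and Slit2 were higher in neuronal nuclei in both treatments, and the summed Slit level of every neuronal library exceeded that of every non-neuronal library. The summed level of the 3 genes was 507, 698, 810.0 and 783 CPM in neuronal agonist libraries against 19.3, 61.8, 50.2 and 104 CPM in non-neuronal agonist libraries. It was 658, 609, 609 and 758 CPM in neuronal control libraries against 89.6, 120.1, 34.1 and 98.1 CPM in non-neuronal control libraries. Slit2 accounted for most of it, with 449.7, 594, 728 and 697 CPM in neuronal, against 13.2, 47.8, 42.1 and 42.8 CPM in non-neuronal agonist libraries. Neuronal control libraries had 609, 532, 537 and 690.0 CPM and non-neuronal control libraries 53.5, 106, 22.1 and 63.4 CPM. The groups stood far apart in both treatments. The log2 fold change of Slit2 was 4.06 ± 0.46 in agonist mice (adjusted p = 8.35e-05) and 3.35 ± 0.39 in control mice (adjusted p = 5.85e-05).

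Slit1 was a low-abundance neuronal transcript, at 29.7, 33.3, 14 and 7.77 CPM in neuronal agonist libraries against 1 count over the 4 non-neuronal agonist libraries. That ratio was 286-fold with a 95% counting interval of 51 to 11340.0 (adjusted p = 0.00368). Without agonist the levels were 11.3, 25.1, 29.7 and 20.1 CPM in neuronal, against 1.48, 9.76, 1.79 and 3.11 CPM in non-neuronal libraries, without overlap (log2 fold change 2.50 ± 0.73, adjusted p = 0.0229). The call in control mice was lost on leaving out, in turn, neuronal control libraries 2 and 3 (0.0567 to 0.0815) or with 1 fit over all 4 groups (0.0821). Slit3 had 27.2, 70.3, 68.5 and 77.7 CPM in neuronal, against 6.05, 14, 8.11 and 60.4 CPM in non-neuronal agonist libraries, with non-neuronal library 4 in the neuronal range. Its log2 fold change was 1.44 ± 0.83 in agonist mice (adjusted p = 0.309) and 1.23 ± 0.57 in control mice (adjusted p = 0.137), where limma voom called it (adjusted p = 0.0348).

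Of the Robo receptors, Robo1 was higher in neuronal nuclei in both treatments and Robo4 lower in control mice. Robo1 had 208, 59.8, 88.8 and 81.6 CPM in neuronal, against 9.82, 36.5, 5.75 and 17.8 CPM in non-neuronal agonist libraries. In control mice it had 54.2, 86.7, 90.9 and 60.9 CPM in neuronal, against 24.6, 21.4, 9.27 and 31.1 CPM in non-neuronal libraries. Groups did not overlap in either treatment, and neuronal agonist library 1 was the highest of all 16. This gave a log2 fold change of 2.58 ± 0.73 in agonist mice (adjusted p = 0.0277) and 1.84 ± 0.42 in control mice (adjusted p = 0.00526). The call in agonist mice was lost on leaving out, in turn, neuronal agonist library 1 and non-neuronal agonist libraries 1, 3 and 4 (0.053 to 0.0861).

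Robo2 was not called. It had 29, 72.9, 112 and 104 CPM in neuronal, against 21.9, 75.8, 153 and 65.7 CPM in non-neuronal agonist libraries, with a log2 fold change of 0.01 ± 0.64 (adjusted p = 0.995). Control mice gave 91.9, 78, 76.4 and 83.7 CPM in neuronal, against 15.1, 24.8, 21.8 and 95.5 CPM in non-neuronal libraries (log2 fold change 1.15 ± 0.51, adjusted p = 0.124). Non-neuronal control library 4 was the only one of its group near the neuronal level, and Robo2 was called on leaving out non-neuronal control library 4 (0.000509) or with no count filter (0.02) and limma voom (0.0161). Robo4, a Robo of vascular endothelium, had 3 counts over the neuronal control libraries against 4.73, 14.3, 13.5 and 28.5 CPM in non-neuronal control libraries. The ratio was 0.0121 with a 95% counting interval of 0.00248 to 0.0359 (adjusted p = 0.00257). Blood endothelial markers (9 genes) summed to 8.3 to 20.1 CPM in neuronal agonist and 15.7 to 34.8 CPM in neuronal control libraries, against 188 to 511 CPM in non-neuronal agonist and to 127 to 328 CPM in non-neuronal control libraries. Of 8 tested in each treatment, 6 were lower in neuronal nuclei in agonist mice and 5 in control mice, and Tie1 was at 0 in neuronal agonist libraries. The part of these cells in the values of Robo4 and Ephb4 was not tested.

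**Figure D3:**
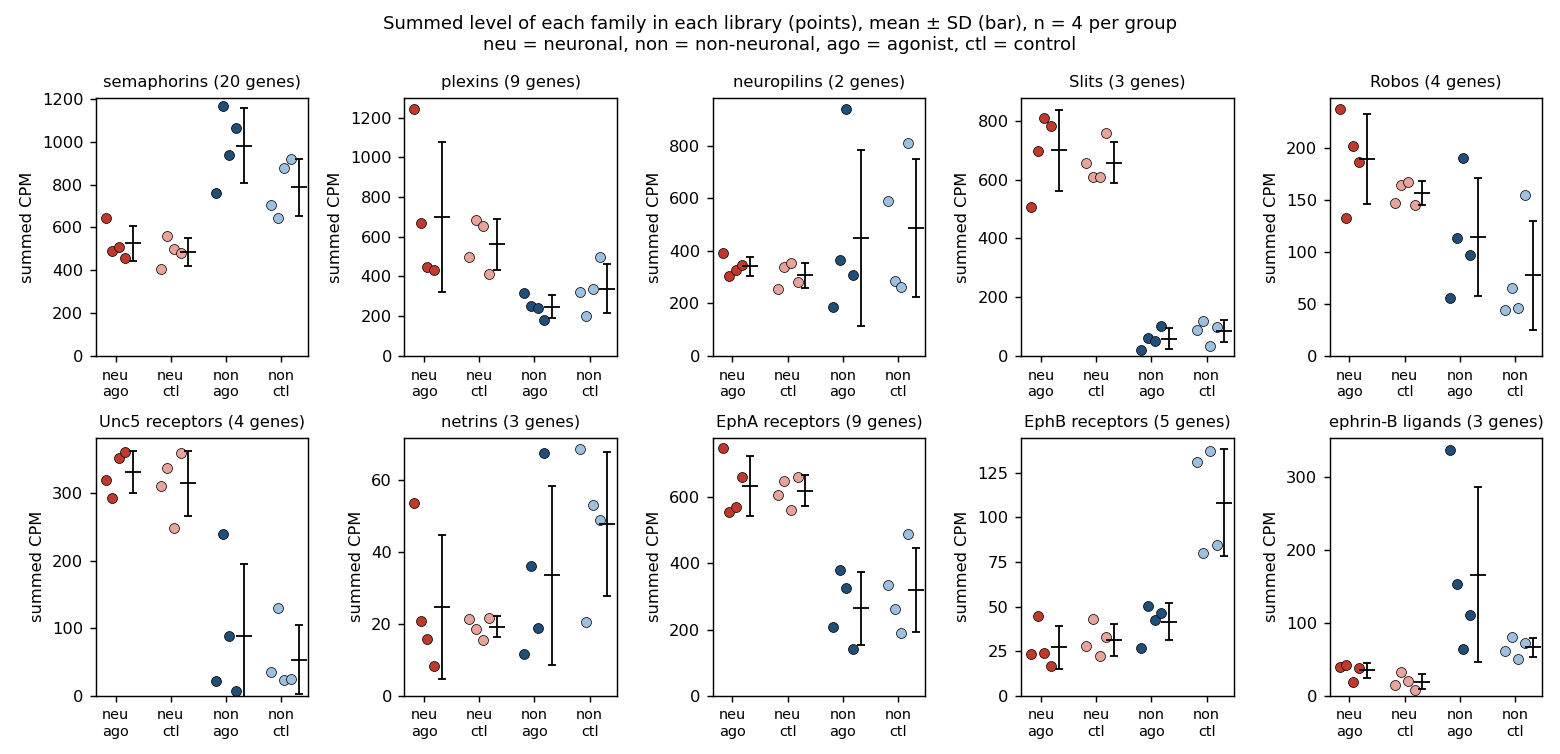
Summed CPM of 10 guidance families in each library (points), with mean and SD, by nuclei and treatment. The Slit, Unc5 receptor and EphA receptor sums of all neuronal libraries lie above those of all non-neuronal libraries of the same treatment, and the semaphorin and ephrin-B sums lie below them.

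In the netrin system Ntn1 was lower in neuronal nuclei of control mice, Unc5d and Ntng1 were higher in both treatments, Unc5a was higher in agonist mice, Unc5c in control mice, and Unc5b was lower in agonist mice. Ntn1, the founding secreted netrin, had 8.57, 5.04, 1.04 and 0.278 CPM in neuronal, against 4.16, 18.1, 11.2 and 61.1 CPM in non-neuronal agonist libraries, which overlapped (log2 fold change -2.71 ± 1.24, adjusted p = 0.18). Levels in control mice were 3.14, 0.513, 2.9 and 5.75 CPM in neuronal, against 63.9, 10.9, 46.4 and 47.6 CPM in non-neuronal libraries. These did not overlap, and Ntn1 was lower in neuronal control nuclei (log2 fold change -3.67 ± 0.73, adjusted p = 0.00236).

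Unc5c, a netrin-1 receptor for repulsion, had 202, 198, 156 and 259.9 CPM in neuronal, against 25.1, 64.2, 2.99 and 3.37 CPM in non-neuronal control libraries (log2 fold change 3.17 ± 0.76, adjusted p = 0.00735). That call was lost with no count filter (0.107) and 1 fit over all 4 groups (0.153). In agonist mice the neuronal libraries had 124, 193, 272 and 283 CPM and the non-neuronal libraries 2.27, 232, 15.2 and 1.39 CPM. Non-neuronal agonist library 2 alone lay in the neuronal range. edgeR fitted a log2 fold change of 1.75 ± 1.27 with all libraries (adjusted p = 0.442), and 5.08 without that library (adjusted p = 0.00248). Unc5c was also called with limma voom (adjusted p = 0.0035) and without both libraries over 30% mitochondrial counts (adjusted p = 0.00762).

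Unc5d, an Unc5 receptor that also binds the adhesion protein Flrt2, had 41.8, 49, 58.4 and 64.9 CPM in neuronal, against 4.91, 1.8, 3.14 and 0.232 CPM in non-neuronal agonist libraries. In control mice it had 71.5, 121, 60.9 and 82.4 CPM in neuronal, against 2.07, 2.63, 8.67 and 14.5 CPM in non-neuronal libraries. All neuronal libraries lay above all non-neuronal ones. Its fitted log2 fold change was 4.39 ± 0.99 in agonist mice (adjusted p = 0.00795) and 3.65 ± 0.59 in control mice (adjusted p = 0.000541).

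Unc5a had 154, 51.5, 21.5 and 11.9 CPM in neuronal agonist libraries, a wide spread, against 3 counts over the non-neuronal agonist libraries. The ratio was 264-fold with a 95% counting interval of 89.9 to 1280.0 (adjusted p = 0.00125). In control mice the levels were 36.4, 14.9, 30.7 and 17 CPM in neuronal, against 1.77, 44.3, 2.69 and 5.96 CPM in non-neuronal libraries, library 2 of the non-neuronal group being the highest of the 8 (log2 fold change 0.93 ± 0.87, adjusted p = 0.492). Unc5b, the Unc5 receptor known from endothelial tip cells, went the other way. It had 0, 0.219, 0.519 and 0.555 CPM in neuronal against 14, 5.87, 69.8 and 4.63 CPM in non-neuronal agonist libraries (log2 fold change -6.03 ± 1.47, adjusted p = 0.0127). Its call was lost on leaving out non-neuronal agonist library 3 (0.0587).

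Dcc, the netrin-1 receptor for attraction, was not called. Neuronal agonist libraries had 0.504, 3.06, 23.9 and 60.8 CPM and non-neuronal agonist libraries 20.0, 0.903, 0.784 and 0 CPM. The neuronal control libraries, at 18.6, 19.5, 23.9 and 13.3 CPM, were closer together, and non-neuronal control libraries had 19.5, 5.26, 0.897 and 0.259 CPM. In each non-neuronal group library 1 alone reached the neuronal control range. The log2 fold change was 2.01 ± 1.59 in agonist mice (adjusted p = 0.48) and 1.62 ± 0.95 in control mice (adjusted p = 0.246). In control mice Dcc was called on leaving out non-neuronal control library 1 (0.0233) or with limma voom (0.021).

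Ntng1, a netrin-G anchored to the membrane that binds Lrrc4c and not Dcc, was among the most neuronal members. It had 111, 141, 189.7 and 151 CPM in neuronal, against 0.378, 0.903, 0.523 and 0.695 CPM in non-neuronal agonist libraries. The control values were 149.5, 160.3, 162 and 227 CPM in neuronal, against 1.18, 7.51, 2.39 and 10.1 CPM in non-neuronal libraries. No non-neuronal library came near the neuronal range. This gave a log2 fold change of 7.81 ± 0.73 in agonist mice (adjusted p = 2.14e-05) and 5.11 ± 0.56 in control mice (adjusted p = 3.65e-05). Its partner Lrrc4c, not a member, had a log2 fold change of 3.68 ± 0.31 in control mice (adjusted p = 5.73e-06), with means of 189 CPM in neuronal, against 15.6 CPM in non-neuronal libraries.

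Of the EphA receptors 2 were higher and 1 lower in neuronal nuclei among 5 tested in agonist mice, and 3 and 2 among 6 tested in control mice. Of the EphB receptors 1 was higher and 1 lower among 3 tested in agonist mice, and 0 and 1 among 4 tested in control mice. The 9 EphA genes summed to 749, 554, 569 and 661 CPM in neuronal agonist libraries against 208, 381, 327 and 140.5 CPM in non-neuronal agonist libraries. In control mice they summed to 606, 650.3, 561 and 662 CPM in neuronal, against 336, 261, 191 and 488 CPM in non-neuronal libraries, and in neither treatment did the groups overlap. Epha5, a receptor of ephrin-A ligands, had 602, 364, 405 and 474 CPM in neuronal, against 18.1, 63.6, 10.5 and 13.9 CPM in non-neuronal agonist libraries. Without agonist the levels were 451, 457, 407 and 503 CPM in neuronal, against 45.6, 37.5, 8.37 and 39.1 CPM in non-neuronal libraries. The neuronal libraries were several times higher without exception. Its log2 fold change was 4.07 ± 0.59 in agonist mice (adjusted p = 0.000457) and 3.88 ± 0.42 in control mice (adjusted p = 3.65e-05).

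Epha6, a close relative, had 66, 90.6, 93.2 and 87.7 CPM in neuronal, against 4.53, 4.96, 2.09 and 0 CPM in non-neuronal agonist libraries. The neuronal control libraries had 67.8, 93.6, 74.2 and 87.1 CPM and the non-neuronal control libraries 9.76, 2.25, 2.99 and 0.777 CPM. These groups did not overlap (log2 fold change 4.86 ± 1.02, adjusted p = 0.00529 in agonist mice and 4.43 ± 0.62, adjusted p = 0.000211 in control mice). Epha8 was called in control mice, where it had 15.4, 14.9, 11.6 and 9.15 CPM in neuronal, against 2.96, 0, 0 and 0.259 CPM in non-neuronal libraries (log2 fold change 4.00 ± 1.13, adjusted p = 0.019). That call was lost on leaving out neuronal control library 1 (0.0525) or with 1 fit over all 4 groups (0.112). In agonist mice Epha8 had 21.5, 0, 0 and 0 CPM in the non-neuronal libraries, so that library 1 held all of their counts (log2 fold change 1.67 ± 1.61, adjusted p = 0.581).

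Epha7, which binds ephrin-A ligands and is known from repulsive boundaries, was lower in neuronal nuclei. It had 37, 38.3, 27.5 and 62.7 CPM in neuronal, against 45.7, 238, 246 and 112 CPM in non-neuronal agonist libraries, with overlap. In control mice it had 42.4, 55.1, 53.6 and 51.2 CPM in neuronal, against 149, 181, 91.8 and 379 CPM in non-neuronal libraries, without overlap. edgeR fitted a log2 fold change of -1.96 ± 0.59 in agonist mice (adjusted p = 0.038) and -1.90 ± 0.39 in control mice (adjusted p = 0.00259). The call in agonist mice was lost on leaving out, in turn, neuronal agonist libraries 1, 2 and 3 and non-neuronal agonist libraries 2 and 3 (0.0752 to 0.116) or with scaling to library size alone (0.19). Epha1, an Eph receptor known from epithelia, was lower in neuronal control nuclei at 1.57, 2.05, 0.967 and 2.09 CPM against 18.6, 12.4, 46 and 14.5 CPM in non-neuronal control libraries (log2 fold change -3.65 ± 0.71, adjusted p = 0.00189). Its highest library, non-neuronal control 3, also had the highest sum of the 10 epithelial markers (14550 CPM), of which all 8 tested were lower in neuronal nuclei there. The agonist libraries did not repeat this match. Among the non-neuronal ones, library 3 had the most Epha1 (26.15 CPM) and the lowest epithelial sum (1112 CPM). Zyx, which shares exon bases with Epha1, had 147 counts in neuronal control and 606 in non-neuronal control libraries, and the part of either in the result was not tested.

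Ephb4, the receptor of ephrin-B2 on venous and lymphatic endothelium, was almost undetected in neuronal nuclei. It had 0 counts in all 4 neuronal agonist libraries against 11.7, 14.4, 31.4 and 12.7 CPM in non-neuronal agonist libraries, which is at least 97.5-fold lower against a floor of 3 counts over the neuronal group (adjusted p = 0.00424). Control mice gave 0, 0, 2.17 and 1.31 CPM in neuronal, against 97.9, 46.5, 61.9 and 63.4 CPM in non-neuronal libraries (log2 fold change -6.11 ± 0.84, adjusted p = 0.000187). Ephb4 shares exon bases with Zan on the opposite strand, and Zan had 26 counts in neuronal agonist, 47 in neuronal control, 1552 in non-neuronal agonist and 2458 in non-neuronal control libraries. The strand setting of the counting is not given in the sources used here, so reads of the 2 genes cannot be told apart over the shared bases. Lymphatic endothelial markers (7 genes, matched by symbol to 8 identifiers) summed to 11.6 to 25.5 CPM in neuronal agonist and 12.6 to 28.8 CPM in neuronal control libraries. In non-neuronal libraries they summed to 677 to 2441 CPM with agonist and 619.8 to 1582 CPM in controls. Of 7 identifiers tested in each treatment, 6 were lower in neuronal nuclei, and 1 identifier, of Ccl21a, was at 0 in neuronal control libraries. Their part in the values of Ephb4 and Efnb2 was not tested. In all, 18 members share exon bases with another annotated gene, among them Unc5a with Hk3, which had 1 count in neuronal agonist, 14 in neuronal control, 148 in non-neuronal agonist and 52 in non-neuronal control libraries.

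Efnb2, the transmembrane ligand of EphB4, was lower in neuronal nuclei as well. It had 6.05, 36.6, 17.4 and 35.8 CPM in neuronal, against 333, 153, 62 and 78.7 CPM in non-neuronal agonist libraries. Levels in control mice were 14.4, 29.2, 18.1 and 6.8 CPM in neuronal, against 58.9, 78.1, 39.5 and 65.5 CPM in non-neuronal libraries. The groups did not overlap, and non-neuronal agonist library 1 was the highest. Its fitted log2 fold change was -2.72 ± 0.72 in agonist mice (adjusted p = 0.0201) and -1.74 ± 0.47 in control mice (adjusted p = 0.0142). The call in agonist mice was lost on leaving out, in turn, neuronal agonist library 3 and non-neuronal agonist library 1 (0.063 to 0.0839) or with scaling to library size alone (0.102) and both libraries over 30% mitochondrial counts left out (0.292), and that in control mice on leaving out neuronal control library 1 (0.0537). Ephb6, an Eph receptor without kinase activity, had 3.53, 22.8, 4.41 and 5.27 CPM in neuronal agonist libraries against 1 count over the non-neuronal agonist libraries, a ratio of 125-fold with a 95% counting interval of 22.1 to 4979 (adjusted p = 0.0152). Its call was lost on leaving out neuronal agonist library 2 (0.0721) or with no count filter (0.0585) and both libraries over 30% mitochondrial counts left out (0.0934). In control mice its log2 fold change was 1.44 ± 0.99 (adjusted p = 0.333).

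The 2 population comparisons share no library, so they can be set against each other. Of the 14 members higher in neuronal nuclei in each treatment, 11 were the same genes: Epha5, Epha6, Robo1, Slit1, Slit2, Unc5d, Ntng1, Plxna3, Plxnb1, Sema4d and Sema4f. They were 78.6% of each list, while over all genes the shared calls were 76.3% of the agonist list and 39.5% of the control list. The 5 members lower in both, Epha7, Ephb4, Efnb2, Sema3a and Sema5a, were 71.4% of the agonist list and 41.7% of the control list, beside 78.6% and 37.3% over all genes. Of 48 members tested in both, 43 had the same sign (89.6%), as did 74.7% of all 13306 genes tested in both, and 0 members and 0 genes were called in opposite directions.

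**Figure D4:**
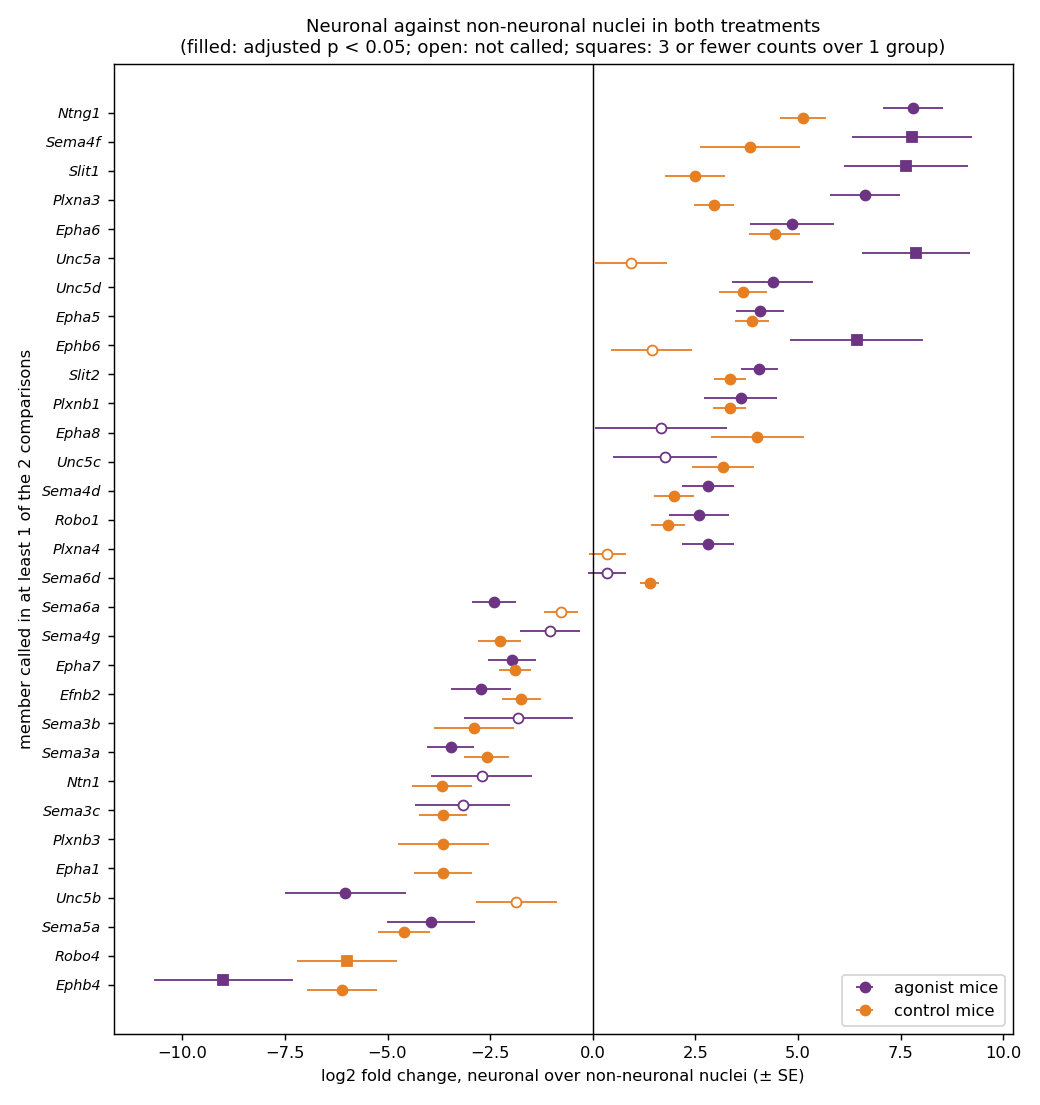
Log2 fold change of neuronal over non-neuronal nuclei, with its SE, for the 31 members called in at least 1 treatment. Filled symbols have an adjusted p under 0.05, and squares mark fits in which a group held 3 or fewer counts, whose size depends on the prior count. Members called in both treatments lie on the same side of 0 in both.

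Other genes of the guidance pathways were described from 2 lists. Of 50 other ligands, receptors and co-receptors, 13 were higher and 5 lower in neuronal nuclei among 45 tested in agonist mice. In control mice it was 16 higher and 7 lower among 43 tested. Over all genes tested, 6.67% were higher and 6.97% lower in agonist mice, and 11.8% and 13.5% in control mice. The adhesion receptors Cntn1 (log2 fold change 4.29 ± 0.69, adjusted p = 0.000957) and Dscam (4.66 ± 0.76, adjusted p = 0.00109) had the lowest p in agonist mice. Ncam1, a neural cell adhesion molecule (3.67 ± 0.65, adjusted p = 0.00184), and the cadherin-type receptor Celsr3 (4.59 ± 0.82, adjusted p = 0.0019) were also higher, and the integrin subunit Itgb1 was lower (-2.32 ± 0.48, adjusted p = 0.00498). Nfasc, an ankyrin-binding cell adhesion molecule, was higher in neuronal control nuclei (2.68 ± 0.31, adjusted p = 6.04e-05). Lrig1 (-3.33 ± 0.40, adjusted p = 7.15e-05), Lrig3 (-2.85 ± 0.39, adjusted p = 0.000181) and the Hedgehog transducer Smo (-6.14 ± 0.89, adjusted p = 0.000266) were lower there. L1cam, the axonal adhesion molecule that associates with Nrp1, was higher in both treatments, by 3.31 ± 0.62 in agonist mice (adjusted p = 0.00249) and 1.57 ± 0.24 in control mice (adjusted p = 0.000362).

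Of 73 intracellular effectors, 9 were higher and 7 lower in neuronal nuclei among 68 tested in agonist mice, and 16 and 10 among 71 tested in control mice. Over all genes tested the shares were 6.67% and 6.97% in agonist mice and 11.8% and 13.5% in control mice. The lower calls of effectors in control mice were near that share. Trim9, a ubiquitin ligase that binds Dcc, had a log2 fold change of 5.84 ± 0.90 in agonist mice (adjusted p = 0.000712). Mycbp2, a ubiquitin ligase of axon guidance, was higher in both treatments (1.80 ± 0.40, adjusted p = 0.00743 in agonist mice and 1.85 ± 0.17, adjusted p = 1.21e-05 in control mice). Rock2, a kinase that acts on the actin cytoskeleton, was lower in both (-1.91 ± 0.33, adjusted p = 0.00149 in agonist mice and -1.43 ± 0.22, adjusted p = 0.000432 in control mice). Dock1, a Rac activator downstream of Dcc, was lower in agonist mice (-4.54 ± 0.70, adjusted p = 0.000678), and Myo10, an unconventional myosin of filopodia, in control mice (-4.40 ± 0.52, adjusted p = 6.33e-05). The median log2 fold change of the tested effectors was -0.27 in agonist and 0.25 in control mice, and that of the other ligands and receptors 0.80 and 0.69. Over all genes tested it was -0.15 and -0.11.

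Levels per length allow members to be ranked within a group. As CPM per kb of exon sequence, neuronal agonist nuclei were led by Epha5 (27.6 ± 6.21, SD, n = 4), Nrp2 (26.6 ± 3.96), Slit2 (24.3 ± 4.93) and Plxna3 (22.7 ± 18.1). Neuronal control nuclei were led by Epha5 (27.1 ± 2.35), Nrp2 (23.8 ± 4), Slit2 (23.3 ± 2.92), Plxnb1 (21.7 ± 6.37) and Ntng1 (21.2 ± 4.3). In non-neuronal agonist nuclei the order was Nrp2 (34.3 ± 27.6), Efnb2 (22.9 ± 18.1) and Sema6a (19.5 ± 7.91), and in non-neuronal control nuclei Nrp2 (33.3 ± 14.8), Epha7 (20.2 ± 12.6) and Ephb4 (14.5 ± 4.68). Neighbours in these orders differed by less than the larger of their SDs. Nrp2 was first or next to first in all 4 groups.

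Members also differed in the genomic length of their genes, a property the rule did not use. In control mice the 14 members higher in neuronal nuclei had a median span of 344 kb and the 12 lower ones 36.2 kb, with 139 kb for the 26 tested members that were not called. The same medians over all protein-coding genes tested were 69.0, 35.2 and 26.1 kb. In agonist mice the medians of the members were 234 kb (14 higher), 133 kb (7 lower) and 146 kb (28 not called). These are descriptions, since genes are not replicates.

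The second question was whether the agonist changed guidance genes in neurons. No member was called among 48 tested in neuronal nuclei by edgeR's quasi-likelihood test, and 0% of all 14182 genes were higher and 0% lower at an adjusted p under 0.05. At an unadjusted p under 0.05 there were 2 members and 711 genes. DESeq2 and limma voom also called 0 members. Groups overlapped for all 48, beside 1.47% of genes higher and 2.16% lower without overlap. With 48 members tested, 0 is near these shares. The member of lowest p was Plxna4, with 225, 190.0, 84.6 and 125 CPM in neuronal agonist and 94.2, 79, 89.4 and 78.7 CPM in neuronal control libraries. Library 3 of the agonist group lay within the control range. Its log2 fold change was 0.87 ± 0.31 (unadjusted p = 0.0141, adjusted p = 0.903).

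Plxnb2, a plexin-B that binds class 4 semaphorins, had 80.7, 52.5, 54.2 and 33 CPM in neuronal agonist and 18.9, 29.2, 41.3 and 20.7 CPM in neuronal control libraries, which overlapped (log2 fold change 1.00 ± 0.41, unadjusted p = 0.0296, adjusted p = 0.903). Next in order of p were Unc5d (-0.65 ± 0.31), Plxna3 (0.84 ± 0.44) and Unc5a (1.27 ± 0.68), each with an adjusted p of 0.903. For both Plxna3 and Unc5a, neuronal agonist library 1 was the highest of the 8. Slit2 had a log2 fold change of 0.06 ± 0.19 with a 95% interval of -0.31 to 0.43, and Epha5 one of 0.02 ± 0.19 with an interval of -0.36 to 0.40. Further log2 fold changes were Unc5c at 0.10 ± 0.28, Robo1 at 0.58 ± 0.39, Robo2 at -0.06 ± 0.37, Slit3 at 0.44 ± 0.37 and Efnb2 at 0.48 ± 0.62. Nrp1 was at 0.002 ± 0.54, Sema3a at -0.17 ± 0.61, Ntn1 at 0.28 ± 1.05 and Dcc at 0.22 ± 0.94, and the adjusted p of these 9 lay between 0.909 and 1. The 95% interval of Dcc was -1.61 to 2.05 and its 4 neuronal agonist libraries ran from 0.504 to 60.8 CPM.

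In non-neuronal nuclei no member was called among 50 tested, while 0.0135% of 14846 genes (Cyp1a1 and Serpina3n) were higher and 0% lower with edgeR. At an unadjusted p under 0.05 there were 6 members and 715 genes, and DESeq2 and limma voom called 0 members. Groups did not overlap for 0 members higher and 3 lower in the agonist group, beside 1.25% and 2.17% of all genes tested. Ephb4 was one, at 11.7, 14.4, 31.4 and 12.7 CPM in agonist and 97.9, 46.5, 61.9 and 63.4 CPM in control libraries (log2 fold change -1.89 ± 0.64, unadjusted p = 0.00904, adjusted p = 0.954). The counts of Zan, which shares exon bases with it, were also fewer in agonist (1552) than in control libraries (2458). Plxna1 was at 9.07, 3.61, 17.3 and 13.2 CPM in agonist and 20.1, 22.9, 38.6 and 127 CPM in control libraries (log2 fold change -2.22 ± 0.84, adjusted p = 0.954), and Plxna3 at 3.02, 1.35, 2.35 and 0.232 CPM against 27.2, 4.88, 10.2 and 12.4 CPM (-2.91 ± 1.25, adjusted p = 0.954).

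Sema6a had 252, 201, 139 and 93.5 CPM in non-neuronal agonist and 42.6, 82.2, 49.3 and 117 CPM in non-neuronal control libraries (log2 fold change 1.28 ± 0.47, unadjusted p = 0.0157, adjusted p = 0.954). Efnb2 had 333, 153, 62 and 78.7 CPM and 58.9, 78.1, 39.5 and 65.5 CPM in the same order (1.41 ± 0.54, unadjusted p = 0.0192, adjusted p = 0.954). For both genes the highest values came from agonist libraries 1 and 2, the libraries with over 30% mitochondrial counts and the lower Cyp1a1 levels. Over all settings run, leaving out both of these libraries among them, the log2 fold change of Efnb2 ran from 0.22 to 1.65. That of Sema6a ran from 0.67 to 1.6, and neither gene was called in any setting. The part of the mitochondrial share or of Cyp1a1 in the difference was not tested. Among the remaining named members the log2 fold changes were -1.62 ± 0.74 for Plxna4, 1.05 ± 0.71 for Robo2, 0.67 ± 0.46 for Sema3a, -1.0 ± 0.73 for Nrp1, -0.72 ± 0.65 for Slit2, 1.43 ± 1.43 for Unc5c and -0.76 ± 0.86 for Ntn1. Epha5 was at -0.25 ± 0.82, Robo1 at -0.25 ± 0.88 and Slit3 at 0.21 ± 0.98, and the adjusted p of these 10 lay between 0.954 and 0.992. Dcc did not pass the count filter in this comparison.

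**Figure D5:**
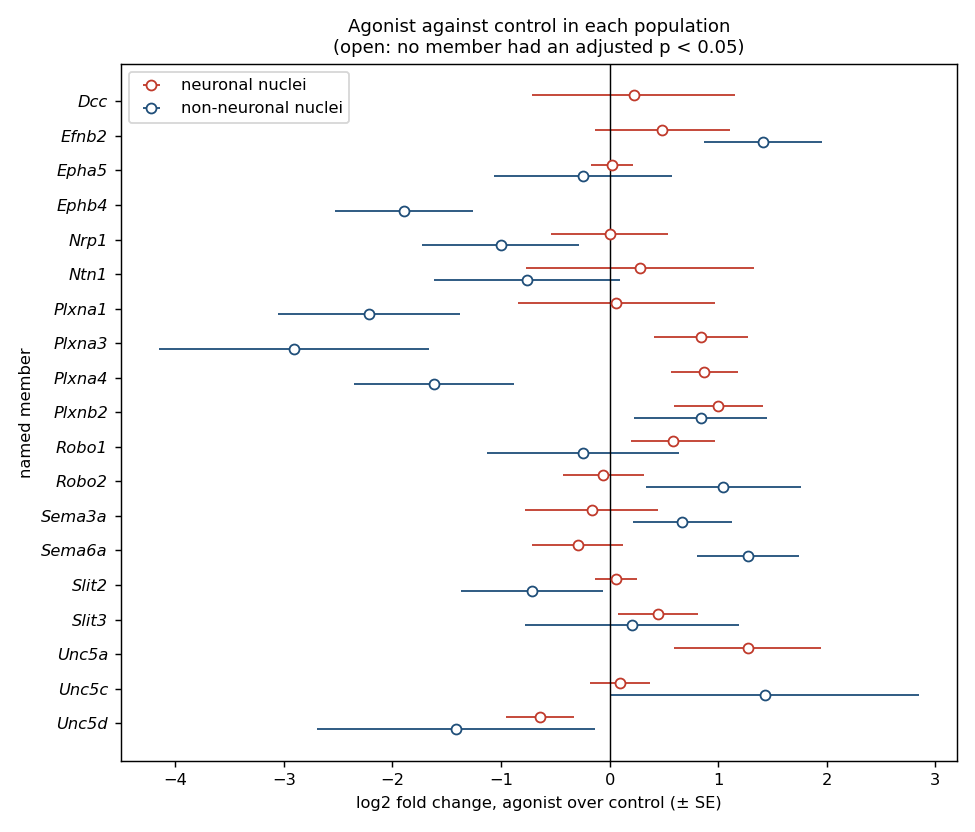
Log2 fold change of agonist over control, with its SE, in neuronal and in non-neuronal nuclei for the named members. All symbols are open because no member had an adjusted p under 0.05, and the errors are wider in non-neuronal than in neuronal nuclei for most members, for example -0.72 ± 0.65 against 0.06 ± 0.19 for Slit2.

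The third comparison asked whether the agonist response differed between the populations. Over all 16 libraries 63 members were tested and none was called, beside 0% of 18566 genes in either direction, with 10 members and 1484 genes at an unadjusted p under 0.05. The lowest p belonged to Unc5a (difference of log2 fold changes, neuronal minus non-neuronal, 7.05 ± 1.54, adjusted p = 0.229) and Plxna3 (3.83 ± 0.89, adjusted p = 0.229). DESeq2's Wald test called both higher (0.393% of genes; adjusted p = 0.00342 for Unc5a and 0.0139 for Plxna3), as did edgeR without a count filter (0.169% of genes; adjusted p = 0.000268 and 0.00193), and limma voom called 0 members. For Unc5a the non-neuronal agonist libraries held 3 counts in all, and non-neuronal control library 2 alone held 118. Ntng1 (2.80 ± 0.77), Slit1 (5.22 ± 1.47) and Plxna4 (2.53 ± 0.77) followed with adjusted p between 0.409 and 0.429.

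The same difference was 0.81 ± 0.55 for Slit2, -1.06 ± 0.83 for Robo2, 0.89 ± 0.80 for Robo1, 1.06 ± 0.96 for Nrp1, -0.89 ± 0.84 for Efnb2 and -0.77 ± 0.76 for Sema3a. It was 1.11 ± 1.36 for Ntn1, -1.29 ± 1.77 for Unc5c, 0.33 ± 0.67 for Epha5, 0.31 ± 1.01 for Slit3 and 0.49 ± 1.90 for Dcc, and the adjusted p of these 11 lay between 0.757 and 0.983. In the 2 pathway lists 0 genes were called in the agonist comparisons or in the difference between them. The lowest p in neuronal nuclei belonged to Lrig3 (log2 fold change 1.89 ± 0.59) and Omg (1.11 ± 0.38), each with an adjusted p of 0.903, and in the difference Trim67 stood at 4.15 ± 1.36 (adjusted p = 0.45).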

How the data were processed

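Nuclear RNA of 16 libraries was measured by 75 bp single-end sequencing after Ovation RNA-Seq V2 amplification, per the labels' protocols. The deposited table holds expected counts per gene, which the authors made with RSEM 1.3.0 and STAR 2.5.2 on GRCm38, per the submitters' processing notes, which also name DESeq2 1.10.1. Which annotation release and strand option were used is not given in the sources used here. Column headers carry a project name about a knockout that the labels do not explain. Of the values above 0 in a library, 78.27% to 82.84% were whole within 1e-09, and all values were rounded. Symbols were matched to 51719 of 51912 identifiers.

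Genes passing filterByExpr (minimum count 10, minimum total 15) were tested with edgeR 4.0.16 in R 4.3.3: TMM scaling, quasi-likelihood F-test with robust dispersion, Benjamini-Hochberg adjustment over all genes tested, called under 0.05. Each comparison used its 8 libraries, and the difference of responses all 16. The SE of a fold change is its size over the square root of F. Levels are TMM-scaled CPM. limma 3.58.1 and DESeq2 1.42.0 served as alternatives, with other scalings, no filter, 1 fit over all groups, a replicate block, removal of 37 mitochondrially encoded genes or of 2 libraries, and leaving out each library. The code was tested on simulated data. Counting intervals (95%) and floors (3 counts) cover counting error only. Exon lengths are from GENCODE M21 and promoter windows from RefSeq.

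The members, gene lists and alternatives were chosen with earlier results of these data known. Members named are all those called between populations, the 5 of lowest p for the agonist, 12 named in every comparison, and up to 6 of each pathway list; Nrp2 is outside this rule and only its levels are given. Library totals of 2663818 to 4902344 counts leave members under about 10 counts per library untested.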

Additional observations from a re-analysis of the deposited data

Results flagged for a closer look

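For each named member and group of 4 libraries, 1 library was compared with the gap and range of the group by Dixon's criterion. It marked 22 of 146 sets (15.1%). The criterion's rate by chance, about 1 in 20, holds for normally distributed values, which low counts are not. A set in which only 1 library holds counts is marked whatever their size. Ephb6, Sema4f and Slit1 in non-neuronal agonist libraries are such sets, with 1 count each. The share marked therefore cannot be set against that rate. The 22 marked sets lay in non-neuronal agonist (11), non-neuronal control (5), neuronal agonist (4) and neuronal control (2) libraries.

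In neuronal agonist libraries Plxna3 stood at 392 CPM in library 1 against 99.9 to 116 CPM in the others, and Ephb6 at 22.8 CPM in library 2 against 3.53 to 5.27 CPM. Plxnb3 had 0.259 CPM (1 count) in library 3 and none elsewhere. Sema3c was at 0 in library 1 against 8.54 to 10.3 CPM. In neuronal control libraries Ntng1 was at 227 CPM in library 4 against 149.5 to 162 CPM, and Robo4 at 0.785 CPM (3 counts) in library 1 against 0.

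In non-neuronal agonist library 1, Dcc was at 20.0 CPM against 0 to 0.903 CPM, Epha8 at 21.5 CPM against 0, and Slit2 at 13.2 CPM against 42.1 to 47.8 CPM. In library 2 of that group Unc5c was at 231.5 CPM against 1.39 to 15.2 CPM, and Epha5 at 63.6 CPM against 10.5 to 18.1 CPM. In library 3 Unc5b was at 69.8 CPM against 4.63 to 14.0 CPM, and Ephb4 at 31.4 CPM against 11.7 to 14.4 CPM. In library 4 Slit3 was at 60.4 CPM against 6.05 to 14.0 CPM, while Ephb6, Sema4f and Slit1 each had 0.232 CPM (1 count) against 0.

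In non-neuronal control libraries Epha8 was at 2.96 CPM in library 1 against 0 to 0.259 CPM, and Unc5a at 44.3 CPM in library 2 against 1.78 to 5.96 CPM. In library 4, Robo2 was at 95.5 CPM against 15.1 to 24.8 CPM, Sema5a at 93.2 CPM against 70.0 to 73.2 CPM, and Sema4f at 5.70 CPM (22 counts) against 0.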

How the results depend on the processing

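Of 180 counts compared, 7 moved by more than 1.5 times. Without a count filter 20 of 71 members tested were lower in neuronal control nuclei (8.74% of genes; 12 of 52 with the filter) and 11 of 70 in agonist mice (6.01% of genes; 7 of 49 with it). In agonist mice scaling to library size alone gave 4 of 49 (4.61% of genes) and 1 fit over all 4 groups 18 of 63 (14.2%). The difference of responses had 2 members higher without a filter and 2 with DESeq2. The cause was not tested. Leaving out 1 library gave 12 to 15 higher and 11 to 15 lower in control mice, 13 to 15 higher and 4 to 9 lower in agonist mice (4 without non-neuronal agonist library 3), and 0 for the agonist.

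Over 105 values of single genes, settings other than leaving out a library kept direction and call in 825 cases, gained a call in 13, lost one in 19 and reversed 24, all of them uncalled. Reversed between populations in agonist mice was Robo2 (-0.00038 with DESeq2 size factors, -0.00048 with DESeq2, -0.38 without the libraries over 30% mitochondrial counts). For the agonist in neuronal nuclei, limma voom gave Dcc -1.44, Epha5 -0.0076, Nrp1 -0.29, Ntn1 -0.11 and Sema3a 0.015, library size alone Epha5 -0.12, Nrp1 -0.026 and Slit2 -0.025. In non-neuronal nuclei Slit3 was -0.013 by library size, and Unc5c -0.25 with voom and -1.53 without the libraries over 30%. In the difference, voom gave Dcc -0.32 and Unc5c 0.32, and leaving out those libraries Efnb2 0.24, Slit3 -0.31 and Unc5c 1.55.

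Same-number correlations of deviations ran from -0.103 to 0.179 over all comparisons. Between populations they were 0.0046 to 0.0737 in agonist mice, against -0.0577 to 0.0408 for unlike numbers. In control mice they were -0.0096 to 0.0552, against -0.047 to 0.0157. Of 4 neuronal libraries, 2 in agonist and 3 in control mice correlated best with their own number. These values do not settle if same-numbered libraries share tissue, and the main fits treat them as unpaired. With the number as a replicate block, 15 members were higher and 12 lower in control mice (12.6% and 11.8% of genes), 14 and 7 in agonist mice (7.23% and 6.57%), and 0 for the agonist or the difference. Under the block Robo2 in control mice gained a call (1.57, adjusted p = 0.0272), and Sema3b in control mice (-2.78, adjusted p = 0.0941) and Epha7 in agonist mice (-1.76, adjusted p = 0.0796) lost theirs. The block reversed Dcc (-1.19), Epha5 (-0.002), Nrp1 (-0.22), Ntn1 (-0.062) and Sema3a (0.029) for the agonist in neuronal nuclei.

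Leaving out a library reversed values as follows. Robo2 in agonist mice ran from -0.34 to 0.5. For the agonist in neuronal nuclei Dcc ran from -1.05 to 0.61, Epha5 from -0.14 to 0.11, Nrp1 from -0.43 to 0.32, Ntn1 from -0.51 to 0.78, Robo2 from -0.27 to 0.22, Sema3a from -0.5 to 0.62, Slit2 from -0.031 to 0.18 and Unc5c from -0.059 to 0.28. In non-neuronal nuclei Nrp1 ran from -1.36 to 0.1, Robo1 from -0.9 to 0.012, Slit3 from -1.04 to 0.6 and Unc5c from -1.92 to 2.66. In the difference Dcc ran from -1.13 to 3.73, Epha5 from -0.05 to 1.13, Nrp1 from -0.12 to 1.42, Slit3 from -0.1 to 1.56 and Unc5c from -2.47 to 1.92.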
